A study of Homo sapiens with 12 samples.

Results

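The 91 histone genes described here are the rows, among 25369 in the counts, whose gene symbol begins with HIST1H to HIST4H, H2AF, H1F, or H3F3. They were chosen by symbol alone. They comprise 70 HIST protein-coding genes (6 of linker histone H1, 17 of H2A, 18 of H2B, 14 of H3, and 15 of H4), 16 replacement histone genes, 3 HIST pseudogenes, 1 replacement pseudogene (H3F3AP4), and the antisense RNA H1FX-AS1.

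RNA-seq was performed on U2OS cells, a human osteosarcoma line, in 4 stable Tet-On lines that were each treated with doxycycline at 1 ug/ml for 24 hours. The pTRE line carried the empty vector, and the other lines expressed HA-tagged E2F1 that was wild type (WT), carried the arginine-to-lysine change R109K, or had lysine in place of arginine at residues 111 and 113 (KK). All lines, pTRE included, were grown under G418 and hygromycin B and kept their endogenous E2F1, and whether a line was a clone or a pool is not stated in the sources used here. Each line had 3 independent biological samples, and libraries were made from poly(A)-selected RNA. The study asked how arginine methylation of E2F1 affects the RNA population, and the comparisons below ask which histone transcripts differed between each E2F1 line and pTRE, and between the E2F1 lines.

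HIST genes are transcribed during S phase, when new DNA is packaged. Their mRNAs classically end in a stem-loop and carry no poly(A) tail. The stem-loop is bound by SLBP and cut with the help of the U7 small nuclear ribonucleoprotein, of which LSM11 is a subunit, while NPAT activates HIST transcription at histone gene clusters. Replacement histones are made throughout the cell cycle from polyadenylated mRNAs, and E2F1 is a transcription factor of the G1 to S transition. HIST counts from poly(A)-selected RNA therefore measure the polyadenylated part of HIST RNA and not its total.

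Reads on genes numbered 21366887 to 31040903 in 11 libraries and 11500537 in WT replicate 2. In WT replicate 2, 58.7% of reads were listed as lying on no counted feature, against 23.6 to 29.6% in the others. E2F1 itself, counted from the endogenous gene and the construct together, was at 82.9 to 101 CPM (counts scaled to library size) in the pTRE line. It reached 1469 to 2314 CPM with WT, 932 to 1282 with R109K, and 1111 to 1477 with KK. Of the marker genes used to check the cell type, 5 of 9 osteoblast lineage genes, 3 of 3 mesenchymal genes, and 4 of 5 epithelial genes had enough reads to be tested. VIM stood at 1149 to 1793 CPM, COL1A1 at 541 to 4077, SPARC at 457 to 1787, RUNX2 at 7.77 to 18.7, and the epithelial keratin KRT8 at 168 to 577, whereas the osteoblast genes SP7, IBSP, and BGLAP were at or near 0. In WT, R109K, and KK, respectively, 3, 4, and 4 of the 5 osteoblast lineage genes fell, as did 1, 2, and 2 of the 3 mesenchymal and 1, 1, and 1 of the 4 epithelial genes, where 11.4, 7.23, and 10.7% of all tested genes fell. The part of such shifts in the histone values was not tested. RNA was taken from whole cultures, so fewer cells making a transcript and less transcript per cell cannot be told apart.

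The 3′ stem-loop is what sets most HIST mRNAs apart from replacement histone mRNAs, so a few are shown first. The stem-loop pattern (GG, any 3 bases, T, any base, T, any 2 bases, A, any 3 bases, CC) was searched without mismatches on the transcribed strand, in the 100 bases after the stop codon of GENCODE gene models on the GRCh37 sequence. It was found in 64 of 67 HIST genes that could be scanned, in 1 of 16 replacement genes (H2AFX), and in 0.874% of 20018 protein-coding genes. In these lines, 5′ to 3′, capitals mark the motif and lower case its flanks.
HIST1H2BK: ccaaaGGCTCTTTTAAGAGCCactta
HIST1H1C: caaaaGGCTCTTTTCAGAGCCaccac
HIST1H2AC: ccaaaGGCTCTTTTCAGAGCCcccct
HIST1H2BJ: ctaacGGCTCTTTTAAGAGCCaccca
HIST1H4C: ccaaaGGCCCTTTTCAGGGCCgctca
H2AFX: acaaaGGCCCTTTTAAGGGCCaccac
These stretches lie at chr6:27114140-27114165 (minus strand), chr6:26055967-26055992 (minus), chr6:26124892-26124917 (plus), chr6:27100095-27100120 (minus), chr6:26104540-26104565 (plus), and chr11:118965603-118965628 (minus) of GRCh37. All 13 H4 genes with the motif had a stem that opens with GGCCCT, as did H2AFX, whereas 50 of the 51 other HIST genes with it had GGCTCT. The stem-loop began 22 to 67 bases after the HIST stop codon. A match describes the sequence and does not show which 3′ end a counted transcript had.

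HIST reads came from few genes. Over all 12 libraries, 49160 reads lay on HIST genes and 1050322 on replacement genes. HIST1H2BK, a gene for H2B, held 43.3% of the HIST reads, and HIST1H1C, a gene for linker histone H1, held 21.7%. The 10 most counted HIST genes held 90.9% together. The 6 HIST genes on a list of those known to make polyadenylated forms (HIST1H1C, HIST1H2AC, HIST1H2BD, HIST1H2BK, HIST2H2BE, and HIST4H4) held 80.8%, although the stem-loop motif was found in all 6. Of the 70 HIST genes, 14 had 0 reads in every library, 26 had reads but too few to be tested (1 to 76 in all), and 30 were tested.

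**Figure D1:**
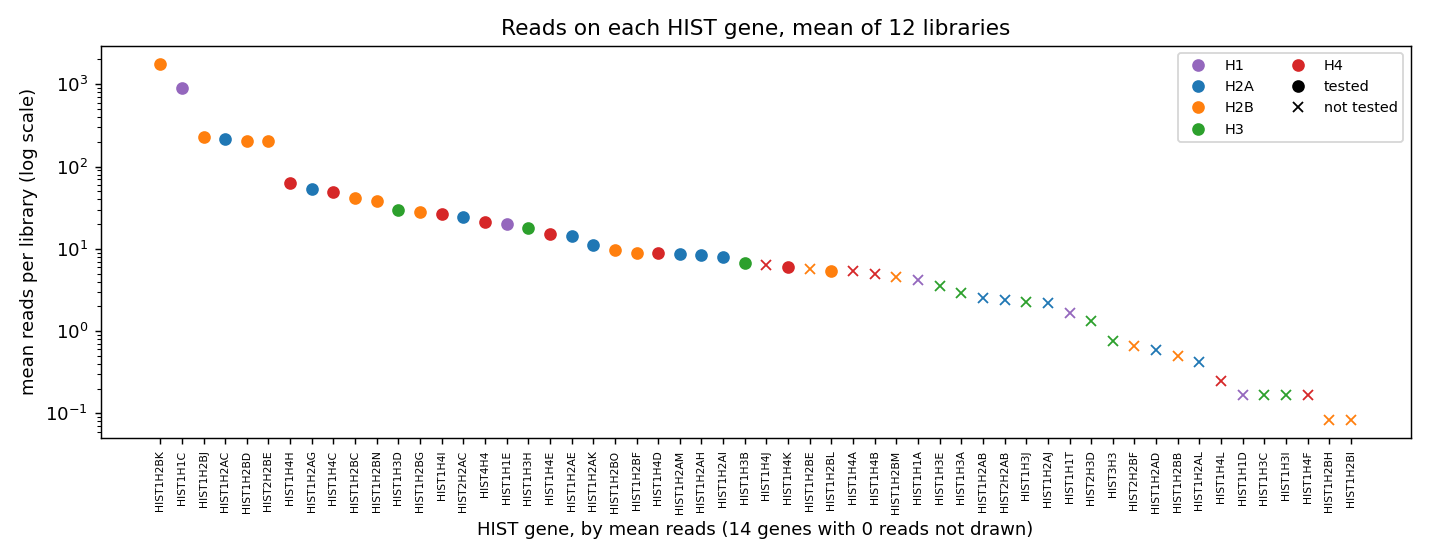
Mean reads per library (log scale) on each of the 56 HIST genes that had any read, ordered from high to low and colored by histone family. Circles are the 30 tested genes and crosses those not tested. HIST1H2BK and HIST1H1C stand above the other genes.

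The 14 genes at 0 included HIST1H1B, HIST1H3F, HIST1H3G, HIST3H2A, and HIST3H2BB. They also included the testis genes HIST1H2AA and HIST1H2BA and the near-identical pairs HIST2H2AA3 and HIST2H2AA4, HIST2H3A and HIST2H3C, and HIST2H4A and HIST2H4B. Of these 14, 6 share over 50% of their 50-base stretches with another annotated gene and 7 share under 5%, so shared sequence did not go with every 0. For the same reason, levels of genes with close copies are uncertain. HIST1H2BK shares 57.2% of its 50-base stretches with other genes, whereas HIST1H1C shares none and HIST1H2AC 1.5%. Among replacement genes, H2AFB1, H2AFB2, H2AFB3, and H3F3A were listed at 0 in all 12 libraries. H3F3A encodes the same H3.3 protein as H3F3B and shares 72.7% of its 50-base stretches with 13 other annotated genes, and what part this had in its 0 was not tested.

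Levels of different genes were compared per kilobase of the canonical GENCODE transcript. H2AFZ, which encodes H2A.Z, stood highest at 901 CPM per kilobase over the 12 libraries. H1F0, the H1.0 linker histone of resting and differentiated cells, was at 357, and H3F3B at 257. H2AFV (149), HIST1H2BK (141), H1FX (139), H2AFY (119), and H2AFX (110) lay close together. HIST1H1C was at 47.6, and H2AFY2 at 30.3. Per kilobase of the canonical transcript, then, HIST1H2BK stood among the more abundant replacement genes, and every other HIST gene stood lower than it. That HIST1H2BK transcript, of 495 bases, ends at the stem-loop stretch. If the counted reads lay on a longer polyadenylated form, its value per kilobase would be lower, which was not tested. GENCODE is not the annotation stated for the counts.

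Summed over the 70 HIST genes, the level was 178, 185, and 187 CPM in pTRE replicates 1 to 3. The WT sums were 183, 145, and 139, the R109K sums 142, 158, and 127, and the KK sums 149, 206, and 145. Every R109K library was below every pTRE library, with means of 142 ± 15.3 and 183 ± 4.97 (SD, n = 3), while WT and KK each overlapped pTRE. Without the polyadenylated list, the sum was 28.1 to 30.3 CPM in pTRE and 29.2 to 29.4 in R109K, so the lower R109K sum lay in the listed genes. Their mean sum was 154 CPM in pTRE and 113 in R109K. Much of this lay in HIST1H1C and HIST1H2BK, together at 119 and 91.4, and neither of these genes passed in R109K. WT replicate 2 had the highest sum outside the list, at 46.7, and KK replicate 2 the highest sum over all HIST genes. In both of these libraries the sum of 3 structured RNAs that carry no poly(A) tail, RMRP and RPPH1 among them, was also high, at 5.06 and 7.87 CPM against 0.624 to 3.14 in the other 10. In KK replicate 2, the sum over the listed genes was 171 CPM, against 119 and 114 in KK replicates 1 and 3. Outside the list it was 34.8, against 29.7 and 30.8. WT replicate 1 had a higher sum outside the list, 37.3, with a structured RNA sum of 1.32. The part of poly(A) selection in these sums was not tested.

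**Figure D2:**
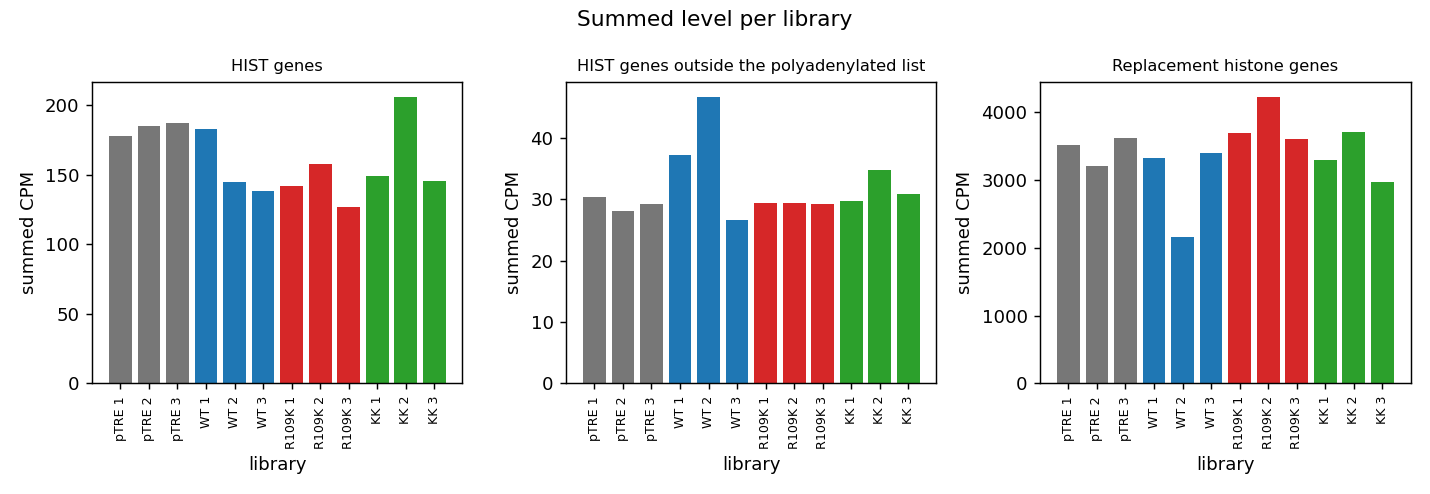
Summed CPM per library (bars, from 0) for all HIST genes, for HIST genes outside the polyadenylated list, and for replacement genes, colored by line. R109K lies below pTRE for HIST genes, and WT replicate 2 is highest in the middle panel (46.7) and lowest in the right panel (2154).

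In WT against pTRE, 2 HIST genes rose and 1 fell of 30 tested, by edgeR's quasi-likelihood test at a Benjamini-Hochberg adjusted p under 0.01. Of all 16625 tested genes, 14.8% rose and 11.4% fell by the same rule. The genes that rose were HIST1H2BJ and HIST1H2AH, and HIST1H2AC fell. The median log2 fold change was -0.03 over the tested HIST genes and 0.00 over all tested genes, and without WT replicate 2 these were -0.27 and -0.03. In R109K, 0 HIST genes rose and 2 fell (HIST1H2AC and HIST1H2BD), against 10% and 7.23% of all tested genes, with a median of -0.21. The 0 holds for edgeR and DESeq2, and 9 of the 30 genes had an unadjusted p under 0.05 in either direction. No share of all tested genes at that unadjusted cut is given, so such counts, here and below, cannot be set against one. In KK, 0 HIST genes rose by either tool and 1 fell (HIST1H2AC), against 13.8% and 10.7%, with a median of -0.05 and 7 genes at an unadjusted p under 0.05. The 3 comparisons share the pTRE samples.

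HIST1H2AC, a gene for H2A on chromosome 6 (26124373 to 26139344 of GRCh37), was lower in each E2F1 line. Its level was 12.3, 13.3, and 11.01 CPM in pTRE, 7.12, 5.86, and 6.54 in WT, 7.58, 8.24, and 7.57 in R109K, and 6.22, 6.96, and 7.85 in KK. All 9 libraries of the E2F1 lines lay below all 3 of pTRE. The log2 fold change was -0.90 ± 0.14 (SE) in WT, -0.65 ± 0.14 in R109K, and -0.80 ± 0.14 in KK, with edgeR adjusted p-values of 1.68e-04, 0.00283, and 4.15e-04. In WT and KK, the call was kept whichever replicate was left out. In R109K, it was lost without pTRE replicate 1 or 2 or R109K replicate 1 or 3, with an adjusted p of 0.0185 at most. The E2F1 lines themselves did not pass a test of their difference for this gene: R109K stood 0.25 above WT on the log2 scale (95% interval, -0.06 to 0.56; edgeR adjusted p = 0.304).

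Of the other 5 genes of the polyadenylated list, 0 fell in WT, 1 in R109K, and 0 in KK by edgeR, against 11.4, 7.23, and 10.7% of all tested genes. With HIST1H2AC included, 3, 5, and 3 of the 6 had an unadjusted p under 0.05, and the medians were -0.40, -0.66, and -0.56. All 6 had negative log2 fold changes in each line, down to -0.06 for the smallest, in KK. The medians over all tested genes were 0.002, -0.0007, and -0.009. No share of all tested genes is given by sign or at the unadjusted cut, so these counts cannot be set against one. HIST1H2BD, a gene for H2B, was at 9.17, 10.2, and 12.3 CPM in pTRE and at 6.35, 7.23, and 5.57 in R109K. These groups did not overlap, and the gene fell by 0.72 on the log2 scale in R109K (edgeR adjusted p = 0.00680, and 0.0389 at most without pTRE replicate 2 or 3 or R109K replicate 1 or 3). In KK its log2 fold change was -0.51 (0.0364), and without KK replicate 2 it passed (0.00975). HIST2H2BE, another gene for H2B, was at 11.3, 12.1, and 9.03 CPM in pTRE and between 5.86 and 8.59 in the 9 libraries of the E2F1 lines. Although its groups did not overlap, it did not pass in any line, with log2 fold changes of -0.54, -0.67, and -0.62 and edgeR adjusted p-values of 0.0250, 0.0103, and 0.0127. Without pTRE replicate 3, the adjusted p was 0.00835 in R109K and 0.00896 in KK, and over all alternatives it was 0.00156 to 0.0528 and 0.00648 to 0.0605. HIST1H2BK was at 70.0, 81.5, and 84.2 CPM in pTRE and between 50.6 and 95.3 in the E2F1 lines, and HIST1H1C was at 43.1, 38.4, and 40.4 and between 19.7 and 53.5. Both overlapped pTRE in KK, where replicate 2 was their highest library. HIST1H2BK also overlapped pTRE in WT, and HIST1H1C in R109K. Neither passed in any line.

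**Figure D3:**
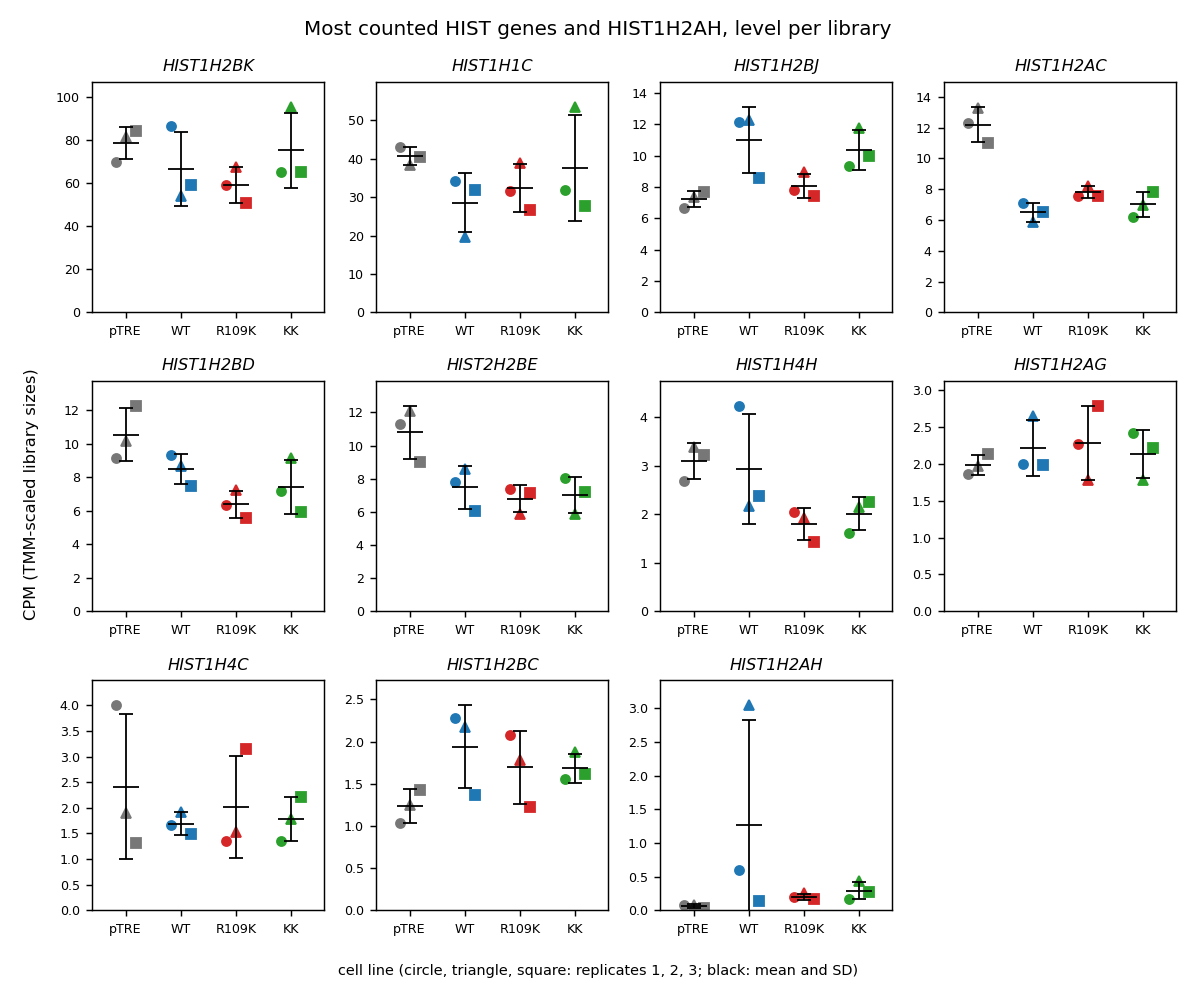
CPM of the 10 most counted HIST genes and of HIST1H2AH in each library, with replicates as circle, triangle, and square and the mean ± SD (n = 3) in black; each vertical axis starts at 0. HIST1H2AC lies lower in all 3 E2F1 lines, and HIST1H2AH is set by WT replicate 2 (3.05 CPM).

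HIST1H2BJ, a gene for H2B, was at 6.69, 7.37, and 7.67 CPM in pTRE, 12.1, 12.3, and 8.56 in WT, 7.81, 8.93, and 7.45 in R109K, and 9.34, 11.8, and 9.98 in KK. WT and KK lay above pTRE without overlap. The log2 fold change in WT was 0.59 ± 0.16 (edgeR adjusted p = 0.00934), whereas in KK it was 0.51 (0.0217). The WT call was lost without any 1 replicate of pTRE or without WT replicate 1 or 2, with an adjusted p of 0.0447 at most. HIST1H2AH, a gene for H2A, was the only tested HIST gene to pass with a change over 2-fold, against 7.89% of all tested genes that rose by that rule, and it rests on few reads. It had 2, 2, and 1 reads in pTRE and 17, 38, and 4 in WT, of which WT replicate 2 had the most although it had the fewest reads on genes. Its log2 fold change was 4.03 ± 0.96 (edgeR adjusted p = 0.00378), with the lowest value of 2.46 and the highest adjusted p of 0.0226 when 1 replicate was left out. The call was lost without WT replicate 2 or any 1 replicate of pTRE. WT replicate 2 was the highest of the 12 libraries for 12 of the 48 HIST genes with a mean under 50 reads.

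Most H2A and H2B genes lie head to head, and the DNA between their starts serves both. Among HIST genes, 10 such H2A and H2B pairs were found with starts within 1000 bases of each other, at distances of 170 to 251 bases, and both genes were tested in 7. HIST1H2AC and HIST1H2BC have starts 219 bases apart. While HIST1H2AC fell, HIST1H2BC was at 1.03, 1.25, and 1.43 CPM in pTRE and at 1.23 to 2.28 in the E2F1 lines, with log2 fold changes of 0.63, 0.45, and 0.43, none of which passed (edgeR adjusted p, 0.0998 to 0.276). HIST1H2BJ lies 248 bases from HIST1H2AG, which was at 1.86 to 2.13 CPM in pTRE and 1.78 to 2.78 in the E2F1 lines. HIST2H2BE lies 236 bases from HIST2H2AC, which passed in no line. No pair had both genes called, but so few HIST genes were called in any line that this says little about pairs. HIST1H2BF and HIST1H2BG had no match in GENCODE and could not be placed in pairs.

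The promoters of HIST1H2AC and HIST1H2BJ are shown because the first gene fell in each line and the second rose in WT, its only call. Each sequence runs 5′ to 3′ on the gene's strand, from 250 bases before to 50 bases after the RefSeq start, in build GRCh38.p14. Capitals mark, on either strand, the E2F motif (TTTCCCGC, TTTCGCGC, TTTGCCGC, or TTTGGCGC), the octamer ATTTGCAT that is typical of H2B promoters, CCAAT, and TATAAA, which may overlap.
HIST1H2AC: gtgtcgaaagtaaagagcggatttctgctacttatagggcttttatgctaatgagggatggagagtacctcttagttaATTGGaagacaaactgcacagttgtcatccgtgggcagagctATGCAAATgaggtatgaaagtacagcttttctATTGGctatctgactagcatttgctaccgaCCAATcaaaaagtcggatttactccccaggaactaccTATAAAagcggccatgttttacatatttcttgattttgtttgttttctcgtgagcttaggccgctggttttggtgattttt
HIST1H2BJ: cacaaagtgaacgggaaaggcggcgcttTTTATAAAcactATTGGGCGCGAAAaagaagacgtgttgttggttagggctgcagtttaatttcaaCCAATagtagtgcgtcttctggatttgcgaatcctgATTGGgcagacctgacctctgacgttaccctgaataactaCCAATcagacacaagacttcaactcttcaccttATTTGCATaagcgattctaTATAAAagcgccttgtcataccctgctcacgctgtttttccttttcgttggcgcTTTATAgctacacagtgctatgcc
These windows are chr6:26123922-26124221 (plus strand) and chr6:27132746-27133045 (minus strand) of GRCh38.p14. The HIST1H2BJ window held the E2F motif and the HIST1H2AC window did not. The windows of HIST1H2AG and HIST1H2BK, which passed in no line, held it too. HIST1H2AG starts 248 bases from HIST1H2BJ, so their windows largely overlap. HIST1H2BK starts 251 bases from HIST1H2AH, which rose in WT. Over 60 HIST genes with a promoter sequence, 25% held the E2F motif, 40% the octamer, 85% CCAAT, and 66.7% TATAAA, against 3.33, 1.8, 35.7, and 12% of 27305 promoters of the same length. The octamer was in 75% of H2B and 73.3% of H2A promoters and in 0 of 11 H4 promoters. The windows of a head-to-head H2A and H2B pair largely overlap, so its genes do not count independently in these shares. Of 14 replacement promoters, 0 held the E2F motif and 78.6% held CCAAT. A match is a description of these windows.

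Of the 10 tested replacement genes, 1 rose and 2 fell in WT, 2 rose and 0 fell in R109K, and 2 rose and 1 fell in KK, against the shares of all tested genes given above. DESeq2 likewise gave 0 that fell in R109K, where 4 had an unadjusted p under 0.05 in either direction. The median log2 fold changes were -0.29, 0.20, and -0.14. WT replicate 2 was the lowest of the 12 libraries for 7 of the 10 genes, H1F0, H1FX, H2AFJ, H2AFX, H2AFY2, H2AFZ, and H3F3B. Without this library, the WT median was -0.12.

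Of the H2A.Z genes, H2AFV passed in each line and H2AFZ in none, and the difference between them was not tested. H2AFV, which encodes the second H2A.Z isoform, was at 350, 332, and 321 CPM in pTRE, 471, 435, and 451 in WT, 566, 597, and 525 in R109K, and 481, 461, and 416 in KK. All libraries of the E2F1 lines lay above pTRE. Those of R109K were the highest, but R109K did not pass against WT, with a log2 difference of 0.31 (edgeR adjusted p = 0.117). The log2 fold change was 0.44 ± 0.11 in WT, 0.75 ± 0.11 in R109K, and 0.44 ± 0.11 in KK, with edgeR adjusted p-values of 0.00495, 1.16e-04, and 0.00506. In R109K, the call was kept whichever replicate was left out, whereas in WT it was lost without pTRE replicate 2 or 3 or WT replicate 1 or 3, and in KK without pTRE replicate 2 or 3 or KK replicate 1 or 2 (adjusted p at most 0.0217 and 0.0290). H2AFZ was at 804, 741, and 760 CPM in pTRE, 780, 414, and 756 in WT, 879, 1093, and 794 in R109K, and 758, 918, and 663 in KK. Each E2F1 line overlapped pTRE and none passed, with log2 fold changes of -0.24 in WT and 0.26 in R109K (edgeR adjusted p = 0.358 and 0.374). Without WT replicate 2, the WT value of H2AFZ was -0.0029, and without R109K replicate 2, its R109K value was 0.12.

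The macroH2A genes both passed in KK, H2AFY upward and H2AFY2 downward. H2AFY, which encodes macroH2A1, was at 164, 167, and 173 CPM in pTRE, 230, 180, and 233 in WT, 236, 274, and 250 in R109K, and 266, 312, and 262 in KK. It rose in R109K and KK, by 0.59 ± 0.13 and 0.74 ± 0.13 on the log2 scale (edgeR adjusted p = 0.00230 and 2.96e-04), and in WT its log2 fold change was 0.35 (0.0352), or 0.46 without WT replicate 2 (0.00469, in a range of 0.00469 to 0.113 over the alternatives). The R109K call was lost without pTRE replicate 1 or 2 or R109K replicate 2, with an adjusted p of 0.0136 at most. H2AFY2, which encodes macroH2A2, was at 86.5, 72.4, and 85.2 CPM in pTRE, 34.2, 32.7, and 51.7 in WT, 51.6, 61.4, and 67.6 in R109K, and 50.2, 57.6, and 50.1 in KK. All 9 libraries of the E2F1 lines lay below pTRE. Its log2 fold change was -1.04 ± 0.16 in WT (edgeR adjusted p = 1.53e-04), the only replacement gene to pass with a change over 2-fold, and 3.93% of all tested genes fell by that rule. The call was kept whichever replicate was left out. It was -0.63 in KK (0.00650, and 0.0290 at most without pTRE replicate 1 or 3 or KK replicate 1 or 3) and -0.44 in R109K (0.0562).

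**Figure D4:**
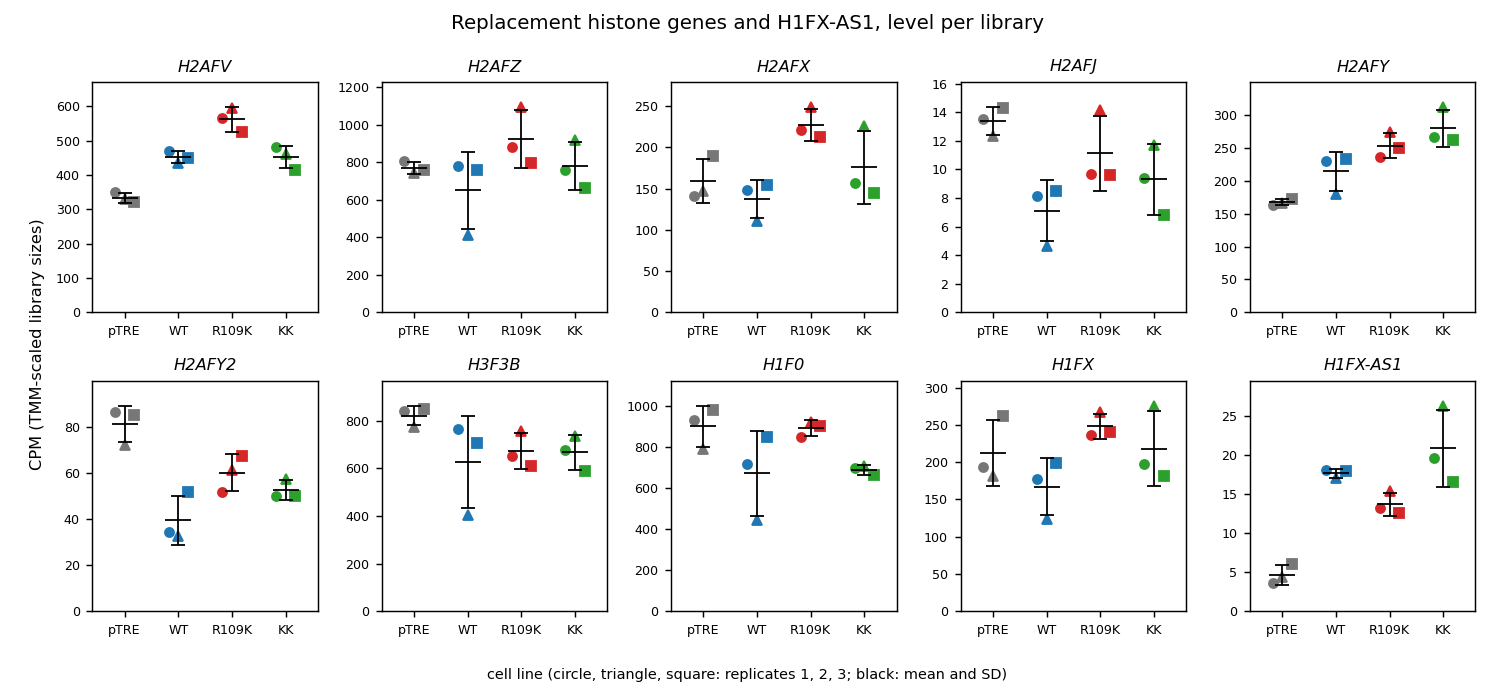
CPM of 9 replacement histone genes and of H1FX-AS1 in each library, with replicates as circle, triangle, and square and the mean ± SD (n = 3) in black; each vertical axis starts at 0. H2AFV and H2AFY lie higher and H2AFY2 lower in the E2F1 lines than in pTRE, and H1FX-AS1 is at 12.5 CPM or more in each of their libraries against 6.09 or less in pTRE.

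H2AFJ, which encodes an H2A variant, was at 13.5, 12.3, and 14.3 CPM in pTRE, 8.15, 4.66, and 8.49 in WT, 9.65, 14.2, and 9.58 in R109K, and 9.41, 11.7, and 6.79 in KK. It fell in WT by 0.88 on the log2 scale (edgeR adjusted p = 0.00704), which was lost without any 1 replicate of pTRE or without WT replicate 1 or 2 (0.0288 at most). H2AFX encodes the H2A variant that is phosphorylated at DNA breaks. Since the stem-loop motif was found in H2AFX, its counts from poly(A)-selected RNA may also be only a part of its RNA. H2AFX was at 141, 147, and 189 CPM in pTRE, 148, 111, and 154 in WT, 220, 249, and 212 in R109K, and 157, 226, and 144 in KK. R109K lay above pTRE and WT without overlap, but its log2 fold changes of 0.51 against pTRE and 0.72 against WT did not pass (edgeR adjusted p = 0.0408 and 0.0384). By DESeq2 the second passed, at an adjusted p of 0.00411, and the alternatives ranged from 0.00411 to 0.155. With only the 6 samples compared, the first passed at 0.00183, in a range of 0.00183 to 0.147.

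H3F3B, H1F0, and H1FX passed in no line. H3F3B was at 841, 775, and 846 CPM in pTRE and 405 to 765 in the E2F1 lines, without overlap, and its log2 fold changes were -0.39, -0.29, and -0.30 (edgeR adjusted p, 0.108 to 0.281). H1F0 was at 932, 788, and 977 CPM in pTRE, 715, 446, and 849 in WT, and 662 to 708 in KK, with log2 fold changes of -0.42 and -0.38 (edgeR adjusted p = 0.0695 and 0.104). Without WT replicate 2, the WT values of H3F3B and H1F0 were -0.16 and -0.20. H1FX, a linker histone, was at 193, 181, and 262 CPM in pTRE, 178, 124, and 198 in WT, and 237 to 267 in R109K. H3F3C, a copy of H3F3B without introns, was the least counted of the 10 and passed in no line.

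H1FX-AS1, a noncoding RNA that overlaps H1FX on the opposite strand of chromosome 3, had the largest change among the histone symbols with a mean of at least 50 reads. It was at 3.59, 4.33, and 6.09 CPM in pTRE, 18.05, 17.02, and 17.95 in WT, 13.2, 15.4, and 12.5 in R109K, and 19.6, 26.3, and 16.6 in KK. Every library of the E2F1 lines had over 2 times the CPM of the highest pTRE library. The log2 fold changes were 1.92 ± 0.20, 1.55 ± 0.20, and 2.15 ± 0.20, with edgeR adjusted p-values of 2.97e-06, 3.82e-05, and 9.60e-07, and each call was kept whichever replicate was left out. The library kit marks strand, but whether the counting used strand is not stated, so reads from H1FX and from H1FX-AS1 cannot be told apart where they overlap.

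**Figure D5:**
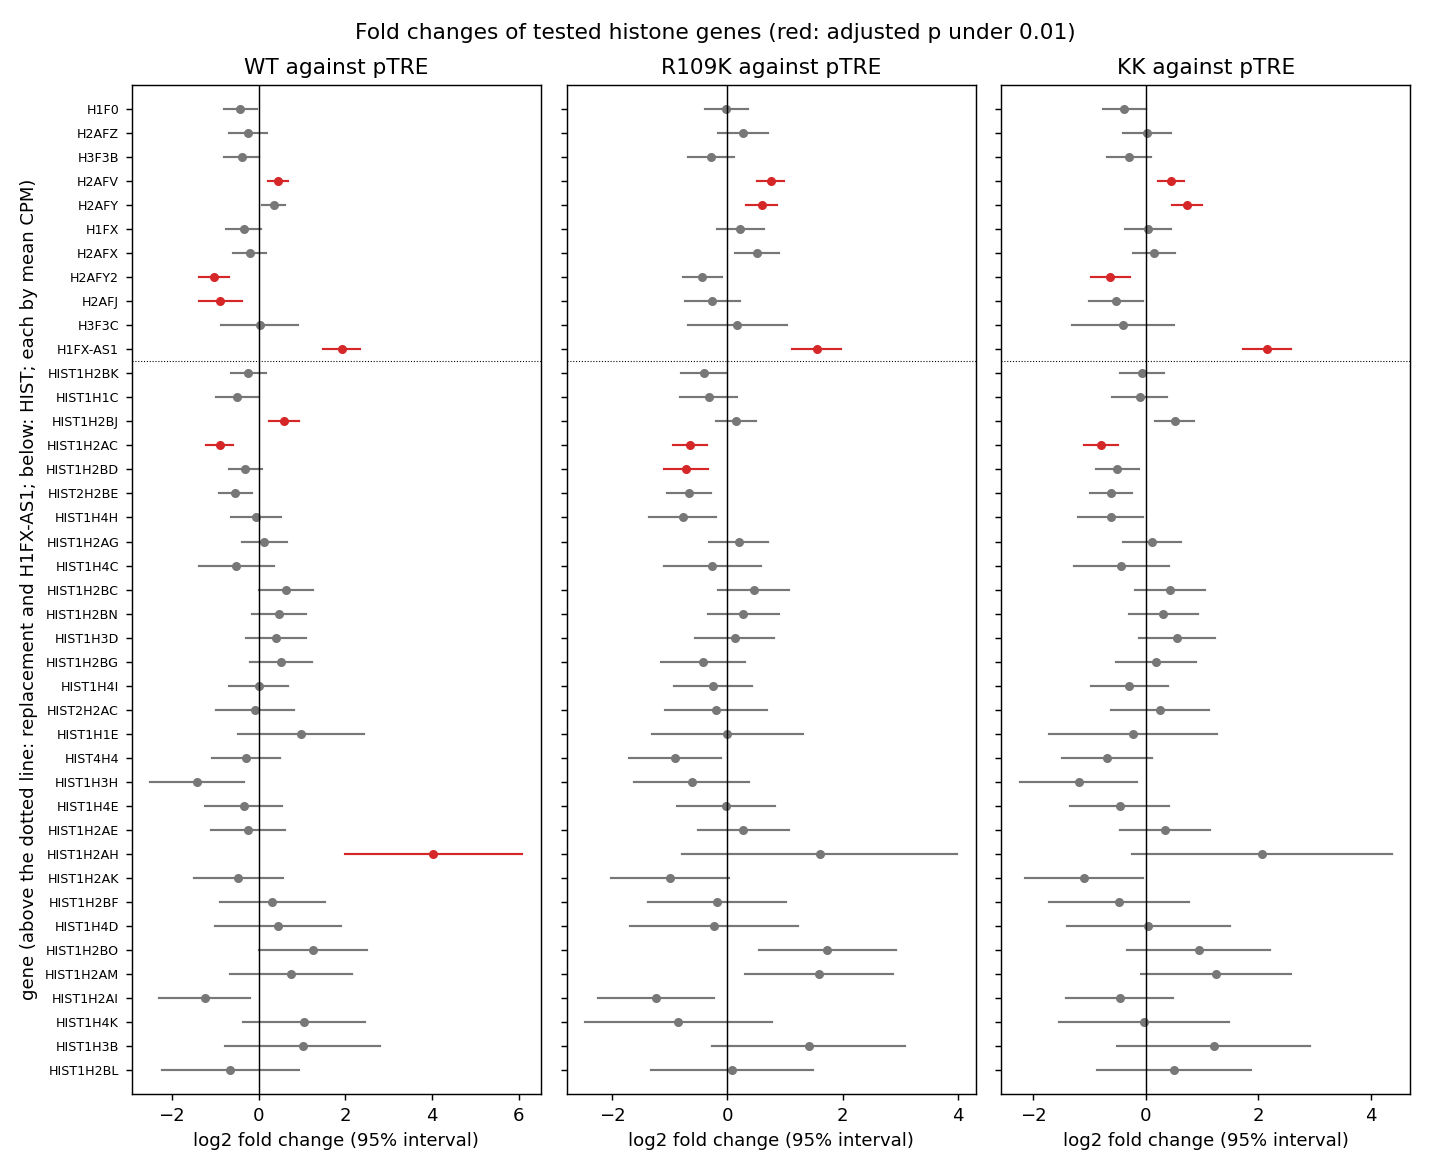
Log2 fold change with 95% interval of each tested gene in each E2F1 line against pTRE, with replacement genes and H1FX-AS1 above the dotted line and HIST genes below it, each ordered by mean CPM; red marks an adjusted p under 0.01. HIST1H2AC is the one HIST gene in red in all 3 panels, H2AFV the one replacement gene, with H1FX-AS1 beside it, and intervals widen toward the HIST genes with few reads.

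Between the E2F1 lines, 0 of 30 HIST genes and 0 of 10 replacement genes passed in any of the 3 comparisons by edgeR. Of all tested genes, 0.71% passed in either direction in R109K against WT, 0.012% in KK against WT, and 0.132% in R109K against KK. At an unadjusted p under 0.05, there were 6, 1, and 1 HIST genes and 7, 2, and 1 replacement genes, and DESeq2 called only H2AFX in R109K against WT. All 10 replacement genes had a positive log2 fold change in R109K against WT, with a median of 0.46 against -0.01 over all tested genes and a range of 0.10 to 0.72. Without WT replicate 2, the median was 0.27 and 9 of the 10 were positive. In KK against WT, the median was 0.31, and 0.09 without that library. For H2AFX, the log2 fold change was 0.59 to 0.81 when 1 replicate was left out, and it passed in none of these fits. Without WT replicate 3, H2AFY2 passed, with a log2 fold change of 0.84 (edgeR adjusted p = 0.00498, against 0.0554 with all samples).

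Genes for making and placing histones were read from the same fit. Of 23 genes for HIST transcription and 3′ end processing, 5 rose in WT, 4 in R109K, and 4 in KK, and 0 fell in any line by edgeR, where 14.8, 10, and 13.8% of all tested genes rose. The medians were 0.19, 0.08, and 0.06. At an unadjusted p under 0.05, there were 9, 8, and 8 in either direction. SLBP, the stem-loop binding protein, was at 71.4, 61.5, and 69.6 CPM in pTRE and between 112 and 150 in the E2F1 lines. Its log2 fold change was 0.94, 0.94, and 0.97 (edgeR adjusted p, 2.07e-05 to 4.82e-05). NPAT rose by 1.27, 0.94, and 0.92 on the log2 scale (edgeR adjusted p = 1.17e-04, 0.00191, and 0.00154) and LSM11 by 1.32, 0.70, and 1.14. In R109K, the NPAT call was lost without pTRE replicate 3 or R109K replicate 1 (adjusted p at most 0.0140), and that of LSM11 without pTRE replicate 1 or R109K replicate 1 or 3 (0.0177 at most). The NPAT call in KK was lost without pTRE replicate 3 (0.0114). ZNF473, a component of histone 3′ end processing, rose in WT and KK, UPF1 in WT, and COIL, the Cajal body protein coilin, in R109K. CASP8AP2, an NPAT partner, passed in no line.

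Of 10 chaperones of replication-coupled assembly, 2 rose and 1 fell in WT, and 2 rose and 0 fell in each of R109K and KK. These counts were near the shares of all tested genes. ASF1B, which carries H3 and H4, rose by 0.46, 0.74, and 0.50 on the log2 scale (edgeR adjusted p = 0.00767, 3.31e-04, and 0.00464), and NAP1L4 also rose in each line, whereas NAP1L1 fell in WT. The WT call of ASF1B was lost without any 1 replicate of pTRE or without WT replicate 1 or 3, and the KK call without pTRE replicate 1 or 2 or KK replicate 1 or 2 (adjusted p at most 0.0442 and 0.0308). CHAF1A and CHAF1B, subunits of chromatin assembly factor 1, and NASP passed in no line. Of 8 chaperones and partners of replacement histones, 2 rose in WT (UBN1 and HJURP), 2 in R109K (HJURP and CENPA), and 1 in KK (HJURP), and 0 fell by edgeR, again with 14.8, 10, and 13.8% of all tested genes rising. There were 4, 4, and 6 at an unadjusted p under 0.05 in either direction. DESeq2 counts were not made for these lists.

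Among 15 S phase genes, 3 rose and 3 fell in WT, 5 rose and 2 fell in R109K, and 4 rose and 4 fell in KK. Of all tested genes, 14.8, 10, and 13.8% rose and 11.4, 7.23, and 10.7% fell. RRM2, a subunit of ribonucleotide reductase, rose from 396 to 434 CPM in pTRE to between 1802 and 2609 in the E2F1 lines, with log2 fold changes of 2.37, 2.28, and 2.39 (edgeR adjusted p, 1.20e-08 to 5.09e-08). CCNE1 and CCNE2, the E cyclins, rose over 2-fold in each line, and MCM5, a subunit of the replicative helicase, fell by 0.91, 0.92, and 1.02 on the log2 scale. Beside these, the mean summed HIST level was 183 ± 4.97 CPM in pTRE, 155 ± 24.0 in WT, 142 ± 15.3 in R109K, and 167 ± 34.1 in KK (SD, n = 3), and WT and KK overlapped pTRE. Without the polyadenylated list, it was 29.2 ± 1.14, 36.9 ± 10.1, 29.3 ± 0.0799, and 31.8 ± 2.67 CPM. How many cells were in S phase was not measured in these data.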

How the data were processed

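For each sample, the authors deposited raw read counts by gene symbol, without normalization. Per the submitters' processing notes, Trim Galore 0.4.3, STAR 2.5.1, DESeq2 1.16.1, and hg19 were used. The annotation, the counting tool, and its strand setting are not given in the sources used here. Counts end with 5 summary lines of reads not counted on genes, which were left out of library sizes and tests. Reads on genes numbered 11500537 to 31040903 per sample.

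Tests used the quasi-likelihood functions of edgeR 4.0.16 (R 4.3.3), with filterByExpr (16625 genes kept), TMM, and 1 fit of all 12 samples with a mean per line. Genes rose or fell at a Benjamini-Hochberg adjusted p under 0.01 over all tested genes, and changes over 2-fold were also marked. CPM values use TMM library sizes. Members, gene lists, and comparisons were chosen with earlier results of these data known. Named genes are E2F1, replacement genes with a mean of at least 50 counts, HIST genes that passed with a change over 2-fold, the 10 HIST genes with the highest mean CPM, 7 genes of the lists (SLBP, NPAT, CASP8AP2, ASF1B, CHAF1A, CHAF1B, and NASP), and other list genes that passed with a change over 2-fold. HIST4H4, HIST2H2AC, H3F3C, the genes listed at 0, the marker genes, and the remaining list genes were named after their values were seen.

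Symbols were matched to GENCODE (87 of 91 members) on GRCh37, and promoters came from RefSeq (GRCh38.p14) for 60 HIST and 14 replacement genes. Intervals are 95% intervals of the fit. The medians without WT replicate 2 were added after seeing the data. Alternatives were DESeq2 1.42, RLE, no filter, 6-sample fits, a replicate block, leaving out each replicate, glmTreat, and an adjusted p under 0.05. The scripts were tested on simulated data. Figures used Python 3.11.15 and matplotlib 3.10.9.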

Additional observations from a re-analysis of the deposited data

How the results depend on the processing

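Of 17 calls against pTRE among the 91 histone symbols, 17 were kept by DESeq2, 14 without a filter, 14 with only the 6 samples compared, and 8 whichever replicate was left out. These tallies include the antisense RNA H1FX-AS1, whose call in each line was kept in every one of these fits. No called fold change of a named gene turned its sign under any alternative. This does not cover values near 0 that did not pass, such as the -0.06 of HIST1H2BK in KK. Without a filter, 1 HIST gene and 0 replacement genes rose in WT and 1 replacement gene rose in KK. With 6 samples, 0 HIST and 0 replacement genes rose in WT, and 5 HIST and 1 replacement genes fell in R109K. DESeq2 gave 2 HIST genes that fell in KK and 1 replacement gene that rose in R109K against WT, and 3 HIST genes fell in R109K by DESeq2 and without a filter, in place of 2. Against a 2-fold threshold by glmTreat, every count against pTRE was 0. At an adjusted p under 0.05, HIST genes that fell numbered 3, 4, and 3 in WT, R109K, and KK, 1 HIST gene rose in each of R109K and KK, 2 replacement genes rose in WT, and 1 rose in R109K against WT. The causes of these moves were not tested, except that fewer samples or a stricter threshold enter by construction. With 1 replicate left out, HIST genes that rose in WT numbered 0 to 2, those that fell 0 to 2 in R109K and 1 to 2 in KK, and replacement genes that rose 0 to 2 in WT, 1 to 2 in R109K and KK, and 0 to 1 in R109K against WT. Replacement genes that fell numbered 1 to 2 in WT and 0 to 1 in KK. RLE and the share of reads on genes moved no count or sum beyond the replicate spread.

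The labels do not tie replicate numbers to a shared day. In R109K against KK, all 3 same-numbered pairs correlated over 0.1 (0.411, 0.470, and 0.294), so these samples may be paired, and with the replicate block 0 HIST and 0 replacement genes passed there, as without it. In the other 5 comparisons, 2 of 15 correlations exceeded 0.1, and the numbers were not treated as pairs. With the replicate block, 16 of the 17 calls were kept, and 1 replacement gene fell in WT in place of 2. Of 12 libraries, 7 correlated best with their own number. Of the 70 HIST genes, 26 had too few reads to be tested at this depth, and 14 more had 0 reads, the cause of which was not tested.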
